A study of Mus musculus with 1 sample.

Results

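A set of 10 imprinted growth genes was described in the pancreas of 2-week-old mice: Dlk1, Igf2, H19, Mest, Peg3, Meg3, Plagl1, Cdkn1c, Grb10 and Ndn. They are 10 of the 32285 genes of the table, found by their symbols, and were chosen by their measured levels, since Dlk1, Mest, H19 and Igf2 had led fibroblast clusters of these same cells. The high level of those 4 genes in fibroblasts, and that they differ between groups of fibroblasts, is therefore how the list was made and not a result. The data were 1 droplet library of single cells (3′ chemistry, counted as UMIs, that is, unique molecules) from mice of the genotype Scap f/f, in which Scap carries loxP sites on both alleles and no Cre is present, so that the label of the library calls it wildtype. According to the supplementary methods the pancreata of 5 to 6 mice were pooled, with equal numbers of males and females, so the library is 1 sample without a replicate. No test between groups is therefore given. Intervals are exact 95% intervals that cover counting error only, not differences between animals.

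Imprinted genes are expressed from the copy inherited from only 1 parent, through DNA methylation set in the egg or sperm. Many of them act on fetal and early postnatal growth and are switched down in most organs as growth slows after birth. Igf2, Dlk1, Mest, Peg3, Plagl1 and Ndn are expressed from the paternal copy, and H19, Meg3, Cdkn1c and, in most tissues, Grb10 from the maternal copy. Igf2 is the best known promoter of growth among them, and Cdkn1c and Grb10 act as brakes. The library holds no information on which parental copy a UMI came from. Because a 3′ count depends on how well each transcript is primed, levels are compared between groups of cells for a gene and not between genes.

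After filtering, 10947 cells with 49202966 UMIs were kept, at a median of 2650 UMIs per cell. Gates on marker genes, none of them imprinted, gave 5611 fibroblasts (Col1a1, Col1a2, Col3a1, Pdgfra, Lum and Dpt), 1664 immune cells, 966 acinar cells, 451 mesothelial cells, 396 red blood cells, 169 endothelial cells, 131 mural cells, 55 Schwann cells, 44 ductal cells and 8 islet cells. A further 136 barcodes carried pericyte and endothelial markers together and are called vessel fragments, 983 cells (8.98%) passed gates of different lineages and were set aside, and 333 passed none. The members together held 1.31% of the UMIs of fibroblasts and 0.624% of all kept UMIs.

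The members lie in a few gene clusters (positions from GENCODE M21 on GRCm38, the build of the files). Igf2 (chr7:142650766-142666816) and the noncoding RNA H19 (chr7:142575529-142578143) are 72.6 kb apart on the reverse strand, and Cdkn1c (chr7:143458339-143461050) is 880 kb from H19. Dlk1 (chr12:109452823-109463336) and the noncoding RNA Meg3 (chr12:109541001-109571726) are 77.7 kb apart on the forward strand. Mest (chr6:30723547-30748465), Peg3 (chr7:6703892-6730431), Ndn (chr7:62346569-62350262), Plagl1 (chr10:13060504-13131694) and Grb10 (chr11:11930508-12038683) lie elsewhere.

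Upstream sequences are shown for 4 members that stand for the 3 patterns between fibroblast subsets described further on (Dlk1 and Mest for the first, Igf2 for the second, Peg3 for the third). Igf2 fitted the second less closely than H19 and Cdkn1c, for which no start was found. The sequences were taken from RefSeq starts on GRCm38.p6, which matched 8 of the 10 members. Of several starts the one with the most CG pairs is printed. Capitals mark matches on either strand to the GC box, the PLAGL1 box or the TATA box, whose letters are given below.
Dlk1, 250 bases before the start, chr12:109452573-109452822, forward strand: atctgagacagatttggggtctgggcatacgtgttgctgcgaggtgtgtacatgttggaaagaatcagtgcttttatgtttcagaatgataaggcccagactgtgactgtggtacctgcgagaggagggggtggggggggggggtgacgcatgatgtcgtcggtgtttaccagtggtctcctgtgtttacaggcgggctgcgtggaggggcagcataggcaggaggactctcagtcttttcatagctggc
Mest, 250 bases before the start, chr6:30737800-30738049, forward strand: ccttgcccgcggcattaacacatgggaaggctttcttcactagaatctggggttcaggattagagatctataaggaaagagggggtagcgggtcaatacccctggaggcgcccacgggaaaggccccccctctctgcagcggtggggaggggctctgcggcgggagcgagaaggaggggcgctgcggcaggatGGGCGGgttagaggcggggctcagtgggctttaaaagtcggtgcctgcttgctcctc
Igf2, 250 bases before the start, chr7:142658805-142659054, reverse strand: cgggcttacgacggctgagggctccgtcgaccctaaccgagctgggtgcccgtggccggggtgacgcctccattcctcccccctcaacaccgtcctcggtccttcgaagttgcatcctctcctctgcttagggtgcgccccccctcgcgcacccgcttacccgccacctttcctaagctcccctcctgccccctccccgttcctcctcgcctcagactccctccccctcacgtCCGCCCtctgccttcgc
Peg3, 250 bases before the start, chr7:6730420-6730669, reverse strand: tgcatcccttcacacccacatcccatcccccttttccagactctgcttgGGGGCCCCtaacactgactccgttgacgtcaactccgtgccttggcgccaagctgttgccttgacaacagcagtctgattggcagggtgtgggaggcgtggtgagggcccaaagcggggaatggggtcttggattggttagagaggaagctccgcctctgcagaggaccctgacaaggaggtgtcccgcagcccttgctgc
The printed windows held 8 CG pairs for Dlk1, 14 for Mest, 22 for Igf2 and 8 for Peg3, against a median of 6 over 32851 starts. The GC box, GGGCGG, was present in the window of Mest and, read from the opposite strand, in that of Igf2, and in 32.7% of all windows of that length. The PLAGL1 box, the palindrome GGGGCCCC, was present in the window of Peg3, the only member among the 8 that held it, and in 0.889% of all windows. None of the 4 windows held the TATA box, which was present in 12.4% of all windows and is the run TATAAA. A 3′ library does not show which of several starts was used, and a match of letters is not evidence of a bound site.

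H19 and Mest also carry microRNAs in their transcripts, miR-675 in an exon of H19 and miR-335 in an intron of Mest. Others, not shown, lie in an intron of Igf2 (miR-483) and in exons of Meg3 (miR-770 and miR-1906). Mature microRNAs are not captured by a library of polyadenylated RNA, so the host counts are the only measure here of those units. The 5′ arms of miR-675 and miR-335 are shown with the seed, bases 2 to 8, in capitals.
miR-675-5p, chr7:142577112-142577133, reverse strand: uGGUGCGGaaagggcccacagu
miR-335-5p, chr6:30741314-30741336, forward strand: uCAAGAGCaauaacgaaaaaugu

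All 10 members had their highest level in fibroblasts among the 11 cell classes, and for 9 of them the interval of fibroblasts lay above that of every other class. The exception was Grb10, at 419 CPM (UMIs per 1000000 UMIs of the class) in fibroblasts and 388 CPM in mesothelial cells. The share of all genes highest in fibroblasts among the 11 classes was not counted, so these counts only describe the members. Against all other kept cells together, all 10 were at least 2-fold higher in fibroblasts, where 14.5% of the 14951 genes with enough UMIs were. The ratios ran from 2.38 for Grb10 (interval 2.29 to 2.46) to 10.5 for H19 (10.3 to 10.7; a log2 ratio of 3.40, which was 2.74 with cells of 10000 or more UMIs left out), and the median log2 ratio of the members was 2.98 against 0.09 for all genes. For Dlk1, Igf2, H19 and Mest this was the ground of their choice. The remaining members were also listed with earlier results of these data known. Their log2 ratios ran from 1.25 for Grb10 to 3.31 for Cdkn1c. The count and the median are therefore descriptions of the list. The other cells include the cells set aside, some of which also carry fibroblast markers.

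Detection per cell was compared between fibroblasts and immune cells. With every cell thinned to 800 UMIs, 79.3% of fibroblasts and 6.73% of immune cells had a UMI of H19. For Igf2 the shares were 67.3% and 3.43%, for Dlk1 45.8% and 1.14%, and for Ndn, the member with the lowest share in fibroblasts, 22.2% and 0.541%. Without thinning, 89.7% of fibroblasts had H19 at a median of 2707 UMIs, against 15.9% of immune cells at 1649.5. The share was higher in fibroblasts for all 10 members with intervals that did not meet. For how many of all genes this held was not counted. In immune cells the CPM of the members stood at 0.777% to 4.21% of the fibroblast level, and that of 6 fibroblast markers at 1.15% to 2.68%. In red blood cells, which lack a nucleus once mature, the range was 0.728% to 3.48% for the members and 0.716% to 2.76% for the markers. In immune cells H19, Igf2, Dlk1, Mest, Cdkn1c and Ndn stood in or below the range of the markers. The other 4 members stood above it, from Peg3 at 2.79% to Grb10 at 4.21%. In red blood cells Meg3 (2.81%), Plagl1 (3.02%) and Grb10 (3.48%) also stood above the markers. Whether the UMIs of any member in these 2 classes are background was not tested.

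Of the secreted and membrane ligands, Dlk1 encodes a transmembrane protein of precursor cells that restrains adipocyte formation. It stood at 966 CPM in fibroblasts (interval 952 to 980) and 368 CPM in mesothelial cells (346 to 392). Every other class was at 31.3 CPM or lower, and no Dlk1 UMI was counted in Schwann cells, where 3 counts, the limit used for a count of 0, would be 27.1 CPM. Igf2, which encodes a fetal growth hormone acting through the IGF1 and insulin receptors, stood at 1925 CPM in fibroblasts. Its next class, the vessel fragments, was 13.2-fold lower at 146 CPM. Igf2 in mesothelial cells was 125 CPM and in acinar cells 74.9 CPM, so mesothelial cells held 38.1% of the fibroblast level of Dlk1 and 6.51% of that of Igf2.

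Of the noncoding RNAs, H19 stood at 4349 CPM in fibroblasts and at 304 CPM in mesothelial cells, 14.3-fold apart, with 250 CPM in endothelial cells and 128 CPM in acinar cells. Meg3, the maternally expressed RNA of the Dlk1 cluster, was spread more widely. It stood at 1558 CPM in fibroblasts, 804 CPM in mesothelial cells, 650 CPM in islet cells (83 UMIs in 8 cells), 396 CPM in ductal cells, 343 CPM in mural cells and 226 CPM in Schwann cells, and at 59.6 CPM in endothelial cells, close to the 57.9 CPM of immune cells. By CPM endothelial cells came directly after mesothelial cells for H19, but after thinning 7.69% of them had an H19 UMI, near the 6.73% of immune cells and under the 13.2% of vessel fragments and 10.1% of acinar cells. For Meg3 they were above only immune and red blood cells by CPM.

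Among the enzymes, nuclear factors and signalling adaptors, Mest, an alpha/beta hydrolase of the endoplasmic reticulum, stood at 804 CPM in fibroblasts and 104 CPM in endothelial cells, its next class. Peg3, a large zinc finger protein, stood at 1488 CPM in fibroblasts, 830 CPM in islet cells (106 UMIs in 8 cells), 257 CPM in ductal cells and 243 CPM in mesothelial cells. Plagl1, a zinc finger factor that can arrest the cell cycle, stood at 532 CPM in fibroblasts and 184 CPM in mesothelial cells, with 58.6 CPM or lower elsewhere. Cdkn1c, which encodes the cyclin-dependent kinase inhibitor p57, stood at 801 CPM in fibroblasts, 114 CPM in vessel fragments and 97.2 CPM in endothelial cells. Ndn, a MAGE family protein that binds E2F factors, stood at 291 CPM in fibroblasts, 101 CPM in mesothelial cells and 59.5 CPM in mural cells.

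Grb10, an adaptor that dampens insulin and IGF1 receptor signalling, had the widest distribution. It stood at 419 CPM in fibroblasts, 388 CPM in mesothelial cells, 343 CPM in Schwann cells, 338 CPM in ductal cells, 284 CPM in vessel fragments, 279 CPM in endothelial cells, 215 CPM in mural cells and 125 CPM in acinar cells, against 17.6 CPM in immune cells. The intervals of fibroblasts, mesothelial cells and Schwann cells met one another. In acinar cells, the enzyme-producing cells of the pancreas, Grb10 was at 29.8% of its fibroblast level, Meg3 at 11.3%, Peg3 at 10.3% and Plagl1 at 8.58%. The other 6 members were at 2.05% to 3.89% there, and the fibroblast markers at 1.81% to 4.30%.

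**Figure D1:**
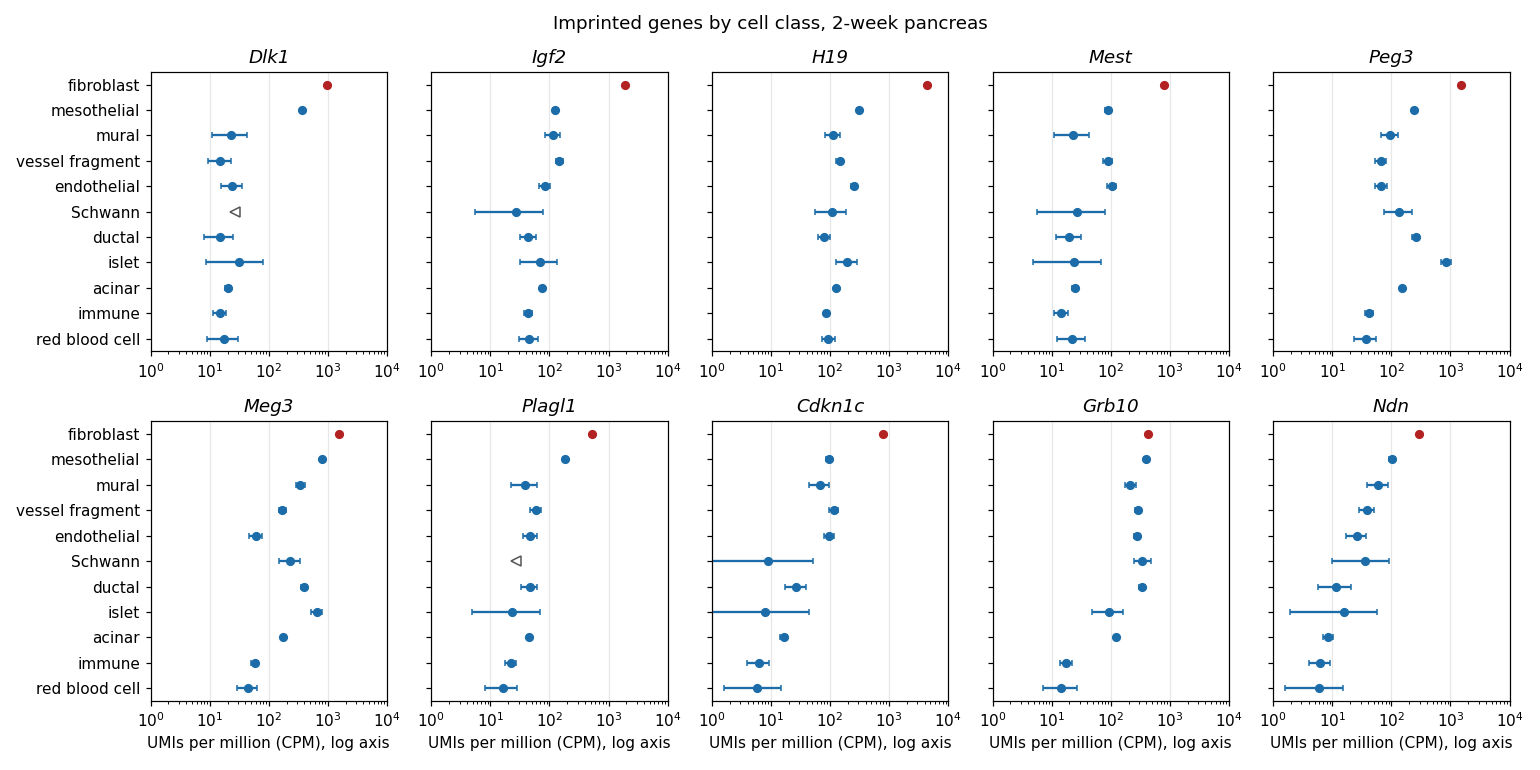
Level of each member in 11 cell classes of the 2-week pancreas, in UMIs per 1000000 UMIs of the class on a log axis. Points are summed UMIs with exact 95% Poisson intervals, fibroblasts in red, and open triangles mark 3 counts where no UMI was counted. Fibroblasts are rightmost in every panel, and for Grb10 they stand beside mesothelial cells at 419 and 388 CPM.

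Mesothelial cells also carried fibroblast genes, with Col3a1 at 60.7% and Col1a1 at 50.7% of their fibroblast level, but Pdgfra at 10.6% and Dpt at 6.65%. The 275 mesothelial cells that failed the fibroblast gate were therefore read on their own. There Dlk1 stood at 327 CPM (interval 296 to 361), Meg3 at 740 CPM, Grb10 at 406 CPM, Plagl1 at 151 CPM and Ndn at 100.1 CPM. H19 stood at 57.8 CPM (45.1 to 72.9), Igf2 at 38.2 CPM, Cdkn1c at 43.1 CPM and Mest at 48.0 CPM. Over all mesothelial cells, Grb10, Meg3, Dlk1, Ndn and Plagl1 were at 34.6% to 92.5% of their fibroblast level, and Igf2, H19, Mest, Cdkn1c and Peg3 at 6.51% to 16.3%, with no member between.

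The fibroblasts were then divided into subsets by clustering without any imprinted gene, so that no member shaped the division. Of 8 subsets, 6 held at least 100 cells and are named by their leading genes. The Cxcl14 AW112010 subset had 1555 cells, the Edn1 Efemp1 subset 1453, the Inhba Tmem132c subset 879, the Rspo3 Thsd7a subset 720, the Eln Fmo2 subset 632 and the Hist1h2ap Top2a subset 246. Pi16, a marker of adventitial fibroblasts, was highest in the Edn1 Efemp1 subset (350 CPM), Mfap4 in the Eln Fmo2 subset (1941 CPM) and then the Inhba Tmem132c subset (1062 CPM), and Rspo3 in the Rspo3 Thsd7a subset (321 CPM) and then the Cxcl14 AW112010 subset (201 CPM). Cells of the Cxcl14 AW112010 subset were shallower than the rest, at a median of 1806 UMIs against 3847 in the Rspo3 Thsd7a subset, and had 0.611% acinar enzyme UMIs against 0.372%. The part of depth in the values was not tested. Levels at equal depth are given below only for Dlk1 and H19, each in its highest and lowest subset. With the lower limit raised above 800 UMIs per cell, the ratio of highest to lowest subset fell for every member except Peg3. It went from 5.68 to 4.66 for Dlk1, from 6.42 to 4.58 for Cdkn1c and from 5.52 to 4.86 for H19, then the widest. For Peg3 it rose from 1.57 to 1.67. In that setting 7 members were still at least 2-fold apart.

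Dlk1, Mest, Plagl1 and Ndn were highest in the Cxcl14 AW112010 and Rspo3 Thsd7a subsets. Dlk1 stood at 1979 CPM in the Cxcl14 AW112010 subset, 1590 CPM in the Rspo3 Thsd7a subset, 914 CPM in the Hist1h2ap Top2a subset, 631 CPM in the Inhba Tmem132c subset, 531 CPM in the Edn1 Efemp1 subset and 349 CPM in the Eln Fmo2 subset. The highest and lowest were 5.68-fold apart (interval 5.26 to 6.14). At 800 UMIs per cell the mean was 1.63 Dlk1 UMIs in Cxcl14 AW112010 cells and 0.320 in Eln Fmo2 cells. Mest followed the same order at the top, with 1362 CPM and 1215 CPM in the first 2 subsets, 614 CPM in the Edn1 Efemp1 subset and 321 CPM in the Eln Fmo2 subset. Plagl1 ran from 777 CPM to 244 CPM and Ndn from 457 CPM to 154 CPM, again from the Cxcl14 AW112010 to the Eln Fmo2 subset. Plagl1 stood at 588 CPM in the Inhba Tmem132c subset and 414 CPM in the Edn1 Efemp1 subset, an order that Dlk1 shared. Ndn (194.9 and 272 CPM) had the opposite order. For Mest (591 and 614 CPM) the intervals of these subsets met.

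Igf2, H19 and Cdkn1c shared a second pattern, high in the Edn1 Efemp1 and Cxcl14 AW112010 subsets and low in the Inhba Tmem132c and Eln Fmo2 subsets. Igf2 fitted it less closely. Its intervals in the Rspo3 Thsd7a subset (2240 to 2344 CPM) and the Edn1 Efemp1 subset (2295 to 2370 CPM) met. H19 stood at 6525 CPM in the Edn1 Efemp1 subset, 6004 CPM in the Cxcl14 AW112010 subset, 3895 CPM in the Rspo3 Thsd7a subset and 2745 CPM in the Hist1h2ap Top2a subset, and at 1360 CPM and 1182 CPM in the Inhba Tmem132c and Eln Fmo2 subsets. After thinning to 800 UMIs, 55.1% of Edn1 Efemp1 cells and 6.01% of Eln Fmo2 cells had 5 or more H19 UMIs. Igf2 stood at 2828 CPM in the Cxcl14 AW112010 subset, 2332 CPM in the Edn1 Efemp1 subset, 2292 CPM in the Rspo3 Thsd7a subset, 1187 CPM in the Hist1h2ap Top2a subset, 940 CPM in the Inhba Tmem132c subset and 710 CPM in the Eln Fmo2 subset. Cdkn1c ran from 1134 CPM in the Edn1 Efemp1 subset to 176 CPM in the Eln Fmo2 subset, 6.42-fold (5.78 to 7.15). This was the widest spread of a member in this division, but it fell to 3.68-fold with a Leiden resolution of 0.3 and to 3.66-fold with the gate limits doubled, where H19 was wider at 5.24-fold and 4.98-fold. In the Edn1 Efemp1 subset the ratio to the other fibroblasts was 1.99 for H19, 1.78 for Cdkn1c and 1.35 for Igf2, and 0.45 for Dlk1, 0.68 for Mest, 0.70 for Plagl1 and 0.90 for Ndn.

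Peg3, Meg3 and Grb10 differed less than 2-fold between subsets. Peg3 ran from 1887 CPM in the Rspo3 Thsd7a subset to 1205 CPM in the Hist1h2ap Top2a subset, 1.57-fold. Meg3 ran from 2035 CPM to 1159 CPM between the same subsets, 1.76-fold, and Grb10 from 539 CPM in the Rspo3 Thsd7a subset to 319 CPM in the Eln Fmo2 subset, 1.69-fold. In the Eln Fmo2 subset, where 8 members had their lowest level, Peg3 stood at 1628 CPM, a ratio of 1.11 (1.07 to 1.15) to the other fibroblasts.

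Each subset was also set against all other fibroblasts together, over 12006 genes. The Eln Fmo2 subset was at least 2-fold lower in 6 of the 10 members, where 7.33% of all genes were, with ratios from 0.202 for Cdkn1c to 0.432 for Plagl1, and Ndn just outside at 0.5004. Of these 6, Dlk1, Igf2, H19 and Mest were among the genes that chose the list, so these counts describe the members and are not evidence from independent values. The Inhba Tmem132c subset was lower in 3 members, H19 (0.281), Cdkn1c (0.444) and Igf2 (0.451), where 8.12% of genes were. The Edn1 Efemp1 subset was lower in 1 member, Dlk1 (9.01% of genes), and the Cxcl14 AW112010 subset higher in 1, also Dlk1, at 2.58 (0.441% of genes). No member was 2-fold higher (1.66% of genes) or lower (5.34%) in the Rspo3 Thsd7a subset, or 2-fold apart in either direction in the Hist1h2ap Top2a subset (15.3%).

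**Figure D2:**
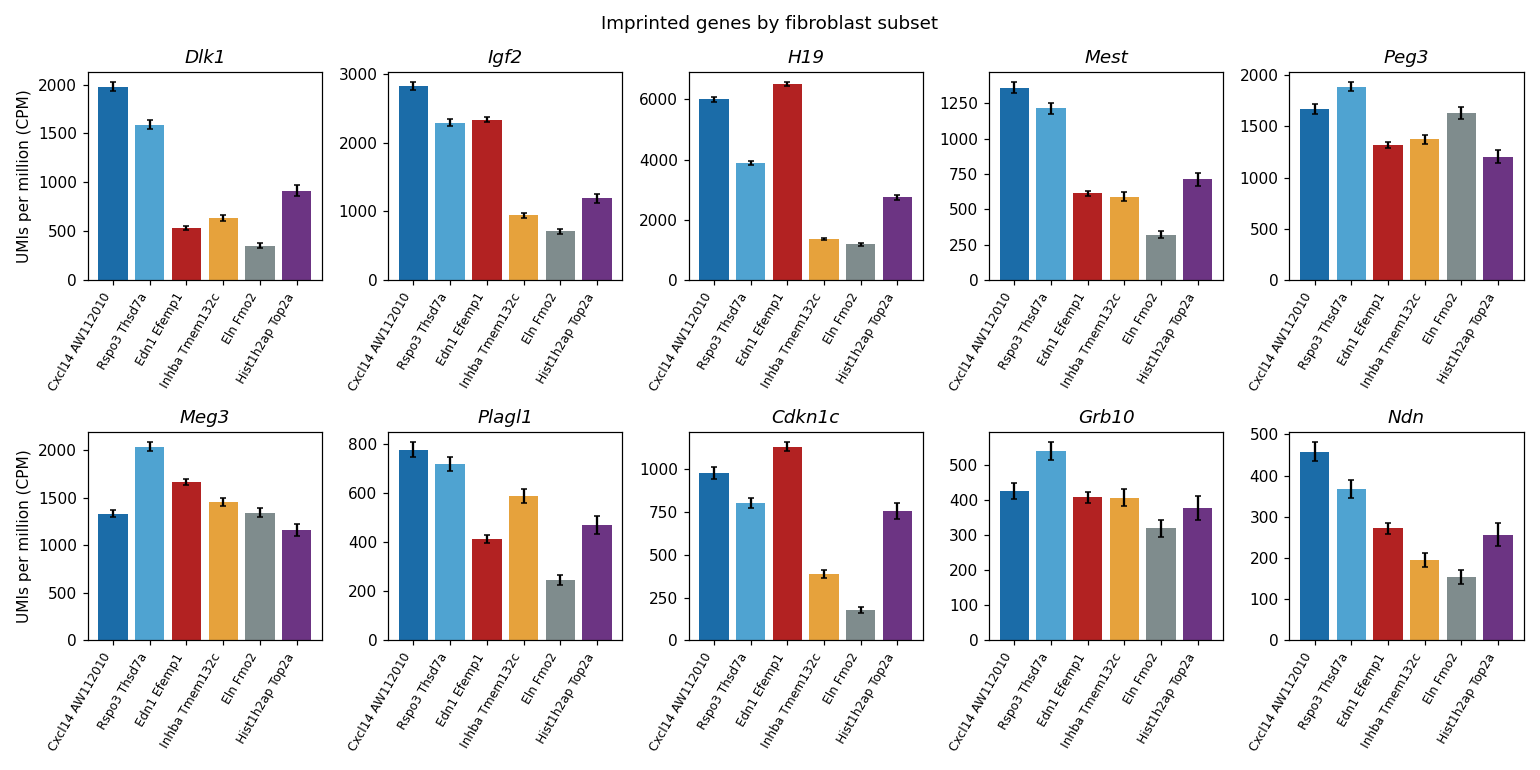
Level of each member in the 6 fibroblast subsets of at least 100 cells, in UMIs per 1000000 UMIs of the subset. Bars are summed UMIs with exact 95% Poisson intervals. Dlk1, Mest, Plagl1 and Ndn peak in the blue subsets, H19 and Cdkn1c peak in the red Edn1 Efemp1 subset, Igf2 is high in all of these, and Peg3, Meg3 and Grb10 stay within 1.76-fold.

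In all, 7 of the 10 members differed at least 2-fold between the highest and the lowest subset, where 47.8% of all 11904 genes did. They include Dlk1, Mest, H19 and Igf2, which were chosen for leading fibroblast clusters, so nothing is read from the count of 7. Of the other 6 members 3 differed that far, near the share of all genes. Low counts widen this ratio, so the members were also set beside the 705 genes with at least 4000 fibroblast UMIs, a limit chosen after the values had been seen, of which 34.2% differed that far. Of the 7, the nearest to the limit was Ndn at 2.97-fold, and of the 3 under it the nearest was Meg3. Among the 6 members that did not choose the list, the spread of Cdkn1c was above that of 95.9% of the 705 genes, that of Plagl1 above 87.5%, that of Ndn above 85.8%, that of Meg3 above 54.2%, that of Grb10 above 49.6% and that of Peg3 above 36.6%. These 6 were also listed with earlier results of these data known, so the ranks are descriptions. When fibroblasts were divided by the marker pairs Rspo3 and Cxcl14 (792 cells), Mfap4 and Meox2 (1396) and Pi16 and Pcolce2 (916) instead, 5 members differed 2-fold, with Plagl1 at 1.82-fold and Ndn at 1.96-fold under the limit. The share of all genes was not counted for this division, so nothing is read from the count of 5. Cdkn1c was then at 2.39-fold, below Dlk1 at 3.70-fold and H19 at 2.93-fold. Dlk1 was then 1612, 609 and 436 CPM in that order and H19 4078, 1946 and 5704 CPM. Igf2 was at 2254, 1055 and 2001 CPM, so it was highest in the first group and not, as H19 was, in the last.

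**Figure D3:**
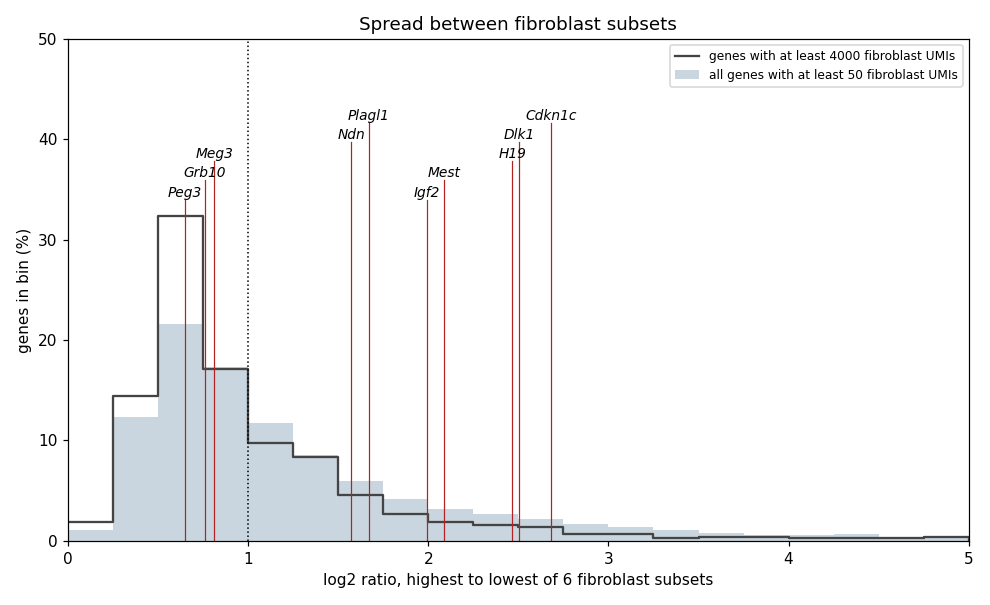
Log2 ratio between the highest and the lowest of the 6 fibroblast subsets for each member (red lines) over all 11904 genes with at least 50 fibroblast UMIs (bars) and the 705 with at least 4000 (line), as a percent of genes per bin. The dotted line marks 2-fold. Peg3, Grb10 and Meg3 fall among the bulk of genes and the other 7 members lie to the right of the dotted line.

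The 2 smallest subsets were not used for these ratios. The Cxcl13 Trf subset of 56 cells had H19 at 794 CPM, Dlk1 at 337 CPM and Peg3 at 406 CPM. The Ccl5 Epsti1 subset of 70 cells, led by immune genes, had H19 at 3502 CPM, Dlk1 at 774 CPM and Peg3 at 1030 CPM.

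Within each subset, members were compared cell by cell after thinning to 3000 UMIs, over 160 to 939 cells that were deep enough. The share used differed, with 210 of the 1555 Cxcl14 AW112010 cells and 939 of the 1453 Edn1 Efemp1 cells. Of the 45 pairs, only Igf2 and H19 had a Spearman correlation over 0.3 in all 6 subsets, from 0.35 in the Cxcl14 AW112010 subset to 0.54 in the Eln Fmo2 subset. These neighbours are expressed from opposite parental copies under a shared imprinting control region and shared enhancers. The other neighbours, Dlk1 and Meg3, ranged from 0.04 to 0.25, and Igf2 and Cdkn1c from 0.12 to 0.30. Low counts weaken a rank correlation, and the share of other gene pairs of like level over 0.3 was not computed. Whether the shared control region bears on the correlation was not tested. The cells share 1 library and come from an unknown mixture of animals, so these are descriptions.

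Cycling fibroblasts were those with UMIs of at least 2 of Mki67, Top2a, Cenpf and Birc5 (218 cells, median 4145 UMIs), and 5125 fibroblasts had none (median 2613). No member was 2-fold apart between them, where 14.5% of 11846 genes were in either direction. H19 stood at 2601 CPM in cycling and 4556 CPM in other fibroblasts, a ratio of 0.571 (0.551 to 0.591), and Igf2 at 1152 CPM and 2000 CPM, a ratio of 0.576 (0.546 to 0.607). The other 8 members had ratios from 0.761 (0.722 to 0.802) for Meg3 to 0.909 (0.849 to 0.971) for Cdkn1c. All 10 intervals lay below 1, but only 6 did when cells of 10000 or more UMIs were left out, where Dlk1 turned to a log2 ratio of 0.07, or when only cells with Xist were used. The share of all genes with an interval below 1 was not counted, and many UMIs make an interval narrow. Nothing is therefore read from the count of 10. Of the cycling cells, 199 lay in the Hist1h2ap Top2a subset and none in the Eln Fmo2 subset, so cycling and subset cannot be told apart. Within the Hist1h2ap Top2a subset, against 18 cells with no cycle gene, H19 had a ratio of 0.564 (0.496 to 0.644) and Igf2 one of 0.81 (0.643 to 1.03), whereas Peg3 was at 1.66 (1.21 to 2.33) and Meg3 at 1.49 (1.10 to 2.07).

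**Figure D4:**
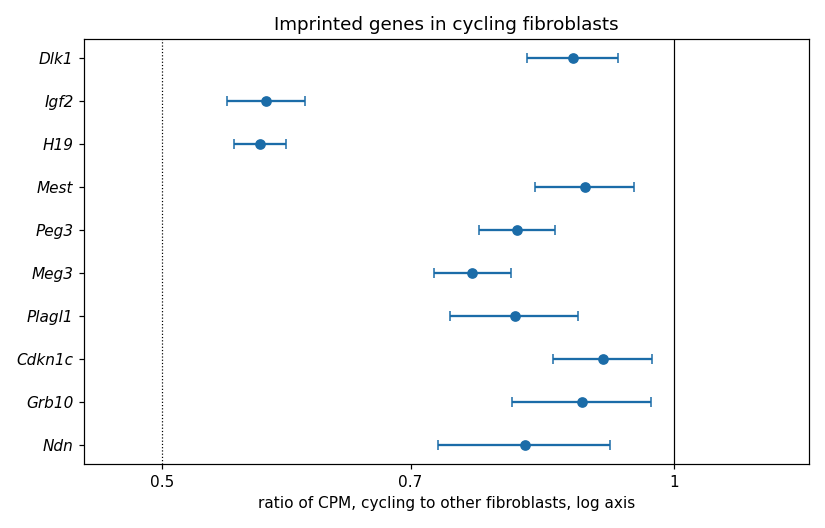
Ratio of the level of each member in 218 cycling fibroblasts to that in 5125 fibroblasts without a cycle gene UMI, on a log axis with exact 95% intervals. The solid line marks equal levels and the dotted line a 2-fold lower level. H19 and Igf2 lie furthest to the left, and no member reaches the dotted line.

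Because male and female mice were pooled, cells with Xist UMIs and cells with UMIs of Ddx3y, Uty, Eif2s3y or Kdm5d were taken to come from different animals. Any such UMI placed a cell, and how many cells stray RNA misplaced was not measured. There were 2093 fibroblasts with Xist alone (37.3%) and 1314 with Y-linked UMIs alone (23.4%), and 2204 with both or neither. The ratio of Xist cells to Y cells in fibroblasts as a whole was 0.877 (Cdkn1c) to 1.06 (Ndn). The 2 sets differed in median depth, at 2950 and 3234.5 UMIs, and in makeup. The Edn1 Efemp1 subset held 513 of the 2093 Xist cells and 400 of the 1314 Y cells. Dlk1 stood at 885 and 944 CPM in these sets and at 966 CPM in all fibroblasts. How far depth, makeup or the placing of cells bears on the ratios was not tested. The highest subset was the same in both sets for 8 members. The exceptions were Plagl1, whose highest 2 subsets had intervals that met in both sets of cells, and Peg3, highest in the Rspo3 Thsd7a subset (1848 CPM) of Xist cells and in the Eln Fmo2 subset (1908 CPM) of Y cells, where its interval met that of the Rspo3 Thsd7a subset (1892 CPM). Among the 8 members that agreed, the highest subset was not always set apart. Its interval met that of the next subset for H19 in Y cells and for Mest and Ndn in Xist cells. H19 in Y cells stood at 6364 CPM in the Edn1 Efemp1 subset and 6339 CPM in the Cxcl14 AW112010 subset. The lowest subset was the same for 9 members, the exception being H19. The interval of the lowest subset met that of the next for H19 and Ndn in Y cells, and for Grb10 and Peg3 in both sets of cells. Dlk1 in the Eln Fmo2 subset stood at 398 CPM in Xist cells and 207 CPM in Y cells, so that its spread between subsets was 4.55-fold in the former and 9.85-fold in the latter. At least 2-fold apart between subsets were 7 members in Xist cells and 8 in Y cells, Meg3 being the added member at 2.02-fold. The share of all genes was not counted in either set of cells.

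**Figure D5:**
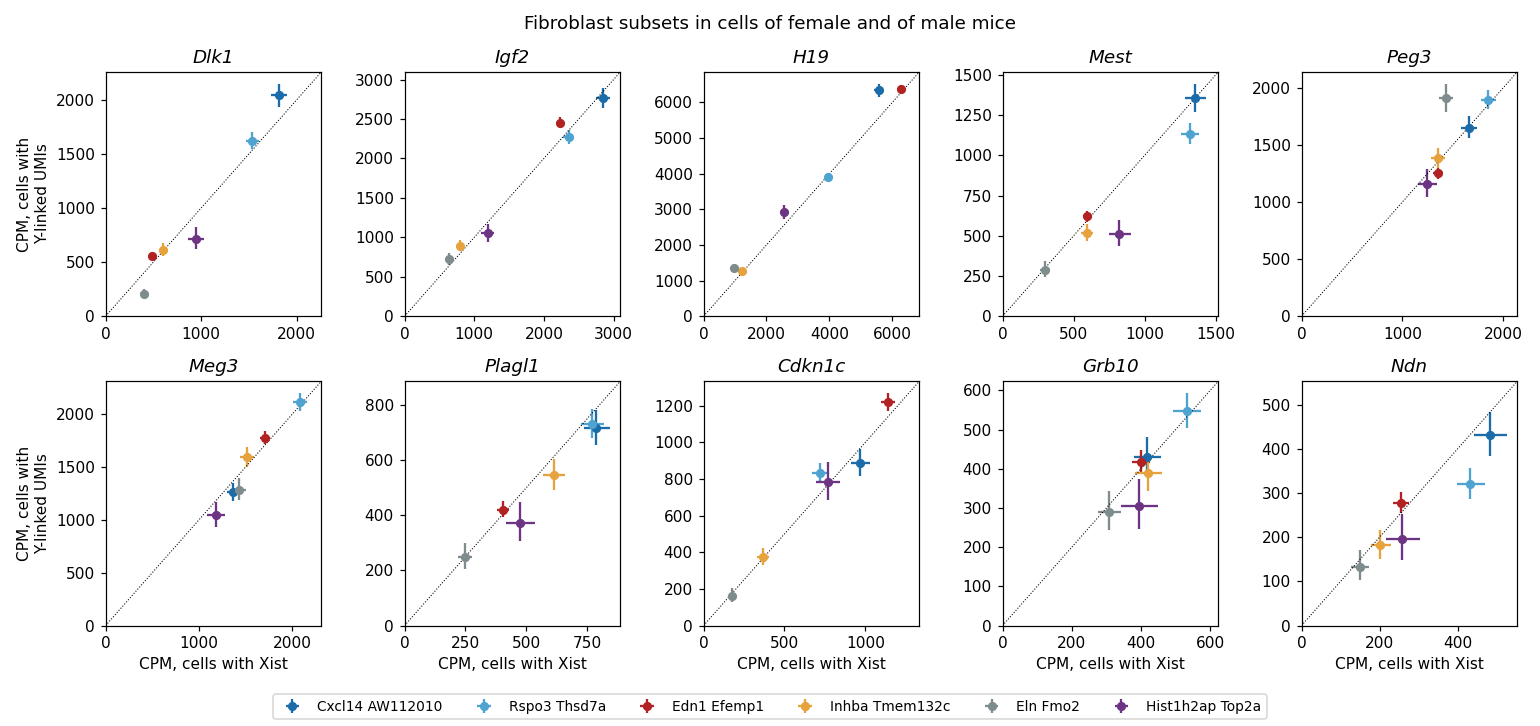
Level of each member in 6 fibroblast subsets, in cells with Xist (horizontal) and in cells with Y-linked UMIs (vertical), in UMIs per 1000000 UMIs with exact 95% Poisson intervals. The dotted line marks equal levels. Dlk1 in the grey Eln Fmo2 subset lies below that line, at 398 CPM in Xist cells and 207 CPM in Y cells, and Peg3 there lies above it.

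A further 40 genes were taken from a fixed list of imprinted genes, and whether each is imprinted in these cells cannot be read from the library. Of the 40, 33 had enough UMIs. Of these, 18 were at least 2-fold higher in fibroblasts than in the other cells and 1 (Nnat) was lower, where 14.5% and 19.8% of all genes were, with a median log2 ratio of 1.10. Between subsets, 16 of 31 differed at least 2-fold, close to the 47.8% of all genes. Gnas, which encodes the stimulatory G protein alpha subunit, was 2.02-fold higher in fibroblasts and 1.41-fold apart between subsets, and the tetraspanin gene Cd81 was at 1.92 and 1.34. Rian, a noncoding RNA of the Dlk1 and Meg3 cluster, was at 508 CPM in fibroblasts against 96.6 CPM in other cells, and 1.53-fold apart between subsets, nearer to Meg3 than to Dlk1. Airn, antisense to Igf2r, was at 524 CPM against 232 CPM. Its UMIs and those of Igf2r lie on opposite strands of overlapping genes. Peg10, a retrotransposon-derived gene, ran from 84.0 CPM in the Cxcl14 AW112010 subset to 13.5 CPM in the Eln Fmo2 subset (6.22-fold). Magel2, a neighbour of Ndn, ran from 24.9 CPM in the Rspo3 Thsd7a subset to 2.89 CPM in the Eln Fmo2 subset (8.61-fold, 3.79 to 24.1). Nap1l5 went the other way, with 12.5 CPM in the Eln Fmo2 subset and 1.40 CPM in the Edn1 Efemp1 subset (8.98-fold, 4.08 to 21.8). Both Nap1l5, with 67 fibroblast UMIs, and Snrpn, with 83 (9.39-fold, interval 1.45 to 395), rested on few UMIs. Klf14, in the cluster of Mest, and Zim1, next to Peg3, were named after their values had been seen. Klf14 was 11.4-fold higher in fibroblasts and highest in the Cxcl14 AW112010 subset (51.4 CPM), as Mest was. Zim1 was 10.8-fold higher in fibroblasts, and 1.95-fold apart between subsets.

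The receptors and partners of the members were counted in the same comparisons. Of 18, 3 were at least 2-fold higher in fibroblasts (Igf2r, Igf2bp1 and Igf2bp2) and 2 lower (Notch1 and Ccnd1), where 14.5% and 19.8% of all genes were, with a median log2 ratio of 0.10 against 0.09 for all genes. Between subsets 9 of the 18 differed at least 2-fold, where 47.8% of all genes did. For IGF2, the signalling receptor Igf1r stood at 399 CPM in fibroblasts and 202 CPM in other cells, and the clearance receptor Igf2r, itself imprinted, at 266 CPM and 78.5 CPM. Igf1, the postnatal ligand of the same receptor, stood at 424 CPM in fibroblasts and 883 CPM in mesothelial cells. Between subsets it ran from 637 CPM in the Rspo3 Thsd7a subset to 211 CPM in the Edn1 Efemp1 subset, and it stood at 556 CPM in the Eln Fmo2 subset, where Igf2 was lowest. Igf2bp1, a fetal mRNA-binding protein, had 65 UMIs in all fibroblasts, 19 of them in the Hist1h2ap Top2a subset. Of the Notch receptors, listed here as partners of DLK1, Notch1 stood at 17.9 CPM in fibroblasts and 326 CPM in endothelial cells. Notch3 stood at 41.7 CPM in fibroblasts and 1018 CPM in mural cells, for which it is also a gate marker, and ran from 89.7 CPM in the Eln Fmo2 subset to 8.22 CPM in the Edn1 Efemp1 subset. Cdk2, a kinase of complexes that p57 inhibits, ran from 70.8 CPM in the Hist1h2ap Top2a subset to 16.0 CPM in the Edn1 Efemp1 subset. In that last subset Cdkn1c was highest, and so was the cyclin gene Ccnd1, at 102 CPM against 34.2 CPM in the Inhba Tmem132c subset. Ccnd1 was not among the partners picked by the naming rule given below, so nothing is read from this. The cyclin gene Ccnd2 ran from 242 CPM in the Inhba Tmem132c subset to 109 CPM in the Hist1h2ap Top2a subset.

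The genes whose levels went most closely with each member over 16 groups (10 classes and 6 subsets) were found among 9262 genes by Pearson correlation of log2(CPM + 10). The groups share 1 library and most contrast fibroblasts with other cells, so high values are common and no p is given. The first for Dlk1 was Sult5a1 (0.96), followed by Col6a6 and Mmp19. Those for Igf2 were Ccl11 (0.98), Nrk and Lpl, for H19 Pcdh20 (0.98), Nrxn3 and Nrk, and for Mest Dchs2 (0.96), Srpx and Nrk. Plagl1 went with Fam102b (0.96), Clmp and Sult5a1, Cdkn1c with Fbn1 (0.96), Ebf2 and Hic1, and Ndn with C1qtnf2 (0.98), Col6a1 and Srpx. For Peg3 and Meg3 the first was the same gene, Igf2bp2 (0.96 and 0.95), followed by Sec16b and Nkain3 for Peg3 and by Ikbip and B830012L14Rik for Meg3. Grb10 went with Nedd4 (0.98), Pkd2 and Fndc3b. Nrk, an X-linked kinase, was thus named for Igf2, H19 and Mest.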

How the data were processed

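Pancreata were digested with collagenase P and dead cells removed. The values deposited by the authors were raw UMI counts for each gene in each barcode, made with Cell Ranger 7.1.0 at default settings on the mm10 reference. The barcodes span 500 to 174899 UMIs. Of 11789 barcodes with 51540177 UMIs, those with over 800 and under 100000 UMIs and under 15% mitochondrial UMIs were kept (10947); an upper limit of 10000, as in the study's methods, was an alternative.

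Classes were gated per cell on fixed marker lists, with limits set from the marker totals, and may differ from the names in the study. Fibroblasts were clustered in scanpy 1.11.5 (2000 variable genes, 30 components, 20 neighbours, Leiden resolution 0.5) without imprinted genes. Summed UMIs were scaled to 1000000 UMIs of the group (CPM), with exact Poisson, Clopper-Pearson or conditional binomial 95% intervals (scipy 1.17.1). The authors' ambient RNA removal was not repeated in the main values. A ratio was counted from 2-fold on genes with at least 50 UMIs, and a count of 0 was set at 3 counts. Doublets were kept in the main values; Scrublet marked 4.91% of cells and 1.34% of fibroblasts. The interval and thinning steps were tested on simulated data.

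The members and lists were chosen with earlier results of these data known. The genes named were the members, from each of the other lists the 4 with most UMIs and the 4 with the widest spread between subsets, 3 most alike per member, and subset leaders. Klf14, Zim1, Nnat and Ccnd1 were also named, outside this rule. A leading gene of the Inhba Tmem132c subset is not reported here, and that subset is named by the next genes in order.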

Additional observations from a re-analysis of the deposited data

How the results depend on the processing

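With 1 library there was no test and no replicate to leave out. No paired analysis was possible because the series as analysed here has 1 sample. Under 17 alternative settings of filters, gates, doublets, ambient RNA, scaling, subsets and sex, the 10 members were highest in fibroblasts in every setting that gave classes. The count at least 2-fold higher in fibroblasts was 10 throughout, except 9 in cells with Y-linked UMIs, where Grb10 had a log2 ratio of 0.73. The count at least 2-fold apart between subsets ran from 5 to 8, and the share of all genes was counted only in the main setting. The count lower in cycling fibroblasts fell from 10 to 6 with an upper limit of 10000 UMIs and to 6 in cells with Xist only. The log2 ratio of Dlk1 turned to 0.073 in the former and 0.0065 in the latter, where Mest was at 0.015 and Cdkn1c at 0.00036; the cause was not tested. Of 110 log2 ratios between fibroblasts and other cells none changed sign, and 48 moved by less than 0.1. That of Dlk1 ran from 2.43 with the upper limit of 10000 UMIs to 4.43 after subtraction of the profile of 748 barcodes under 800 UMIs at a share of 28.9%, against 3.08. Those barcodes come from the filtered table and may include damaged cells.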
